A study of Mus musculus with 27 samples.

Results

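Genes of the transport route between the endoplasmic reticulum (ER) and the Golgi, together with the golgins, were followed through osteoblast differentiation of mouse calvarial cells. The genes were listed by name from their known roles, 37 in all. The list, and the ratios and motifs used later, were chosen with earlier results of these data known, and the tests do not allow for that choice. Of the 37 genes, 36 were matched to 1 identifier each among the 37991 gene identifiers of the series. Mia3, an ER exit site protein, was not matched to an identifier and was not analysed here. The purpose was to place Golga5, a golgin gene next to a locus the study associated with bone density, among the other golgins and the coat genes of the secretory pathway.

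The cells came from the calvariae, the flat skull bones, of newborn C57BL/6J-Col3.6 CFP mice that were 5 to 9 days old. All of them carried cyan fluorescent protein under the Col3.6 promoter, a fragment of a collagen type I promoter that is active from the pre-osteoblast onwards, and were sorted on its fluorescence before being cultured with ascorbic acid and β-glycerol phosphate. RNA was collected every 2 days from day 2 to day 18 of differentiation and amplified before sequencing, with 3 profiles for each of the 9 days and no untreated or unsorted comparison group. The 3 profiles of a day carried 1 barcode, came from different sequencing lanes and differed by no more than sampling noise among genes with whole-number counts, so they were counted as 1 sample. The paper calls them triplicates, and entering the 27 profiles as separate samples raised the calls among the 36 genes from 15 to 28. The labels do not say how many animals or cultures a day stands for.

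Secreted proteins leave the ER in vesicles coated by the COPII complex, which forms at ER exit sites when the small GTPase Sar1 recruits an inner layer of Sec23 and Sec24 and an outer cage of Sec13 and Sec31. Cargo receptors collect soluble proteins into these vesicles, and vesicles coated by the COPI complex carry receptors and escaped ER proteins back. Golgins are long coiled-coil proteins that stand out from the Golgi membranes and catch incoming vesicles. Osteoblasts secrete large amounts of type I collagen, and loss of some of these components, among them Sec24d, Creb3l1 and Trip11, is known to disturb the skeleton.

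Levels are given in TPM, a relative transcript abundance that corrects for transcript length, after division by the upper quartile of each profile. Changes over time are the fitted log2 change from day 2 to day 18 of a straight line in day, tested with edgeR on the estimated counts of the 9 summed libraries, and "rose" and "fell" are used at an adjusted p under 0.05 over the 15659 genes tested. Each library held between 22470195 and 62009157 counts, with the fewest on day 10. With no replicate within a day, the line was tested against the scatter of the days around it. The SD of a member over the 3 lanes of a day reached at most 2.14% of its mean in Lman1 and 31.4% in Golga1, and covers sequencing and quantification only.

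Of the 36 genes, all of which passed the filter on low counts, 6 rose and 9 fell, while 21 were not called. The called share of 41.7% stood beside 54.3% over all genes tested, 16.7% beside 28.3% for rises and 25% beside 26.1% for falls. Over the 8446 genes whose mean level lay in the same range of 6.85 to 231.6 TPM, 61.7% were called, 27.6% rising and 34.1% falling. The median size of the change without regard to sign was 0.26 in the transport genes, 0.60 in the genes of that level range and 0.76 over all genes. Their median coefficient of variation over the days was 10.1%, beside 20.1% in that level range. The median signed change was -0.11, beside 0.05 over all genes and -0.09 in the level range. Summed over the 36 genes, the level went from 3064 TPM at day 2 to 3504 TPM at day 12 and 3409 TPM on day 18. This sum was formed in TPM only, while the fitted changes are in counts. A natural spline in day, which also finds peaks and dips, called 14 of the 36 genes, or 38.9%, beside 57.5% of the 16256 genes tested with it.

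**Figure D1:**
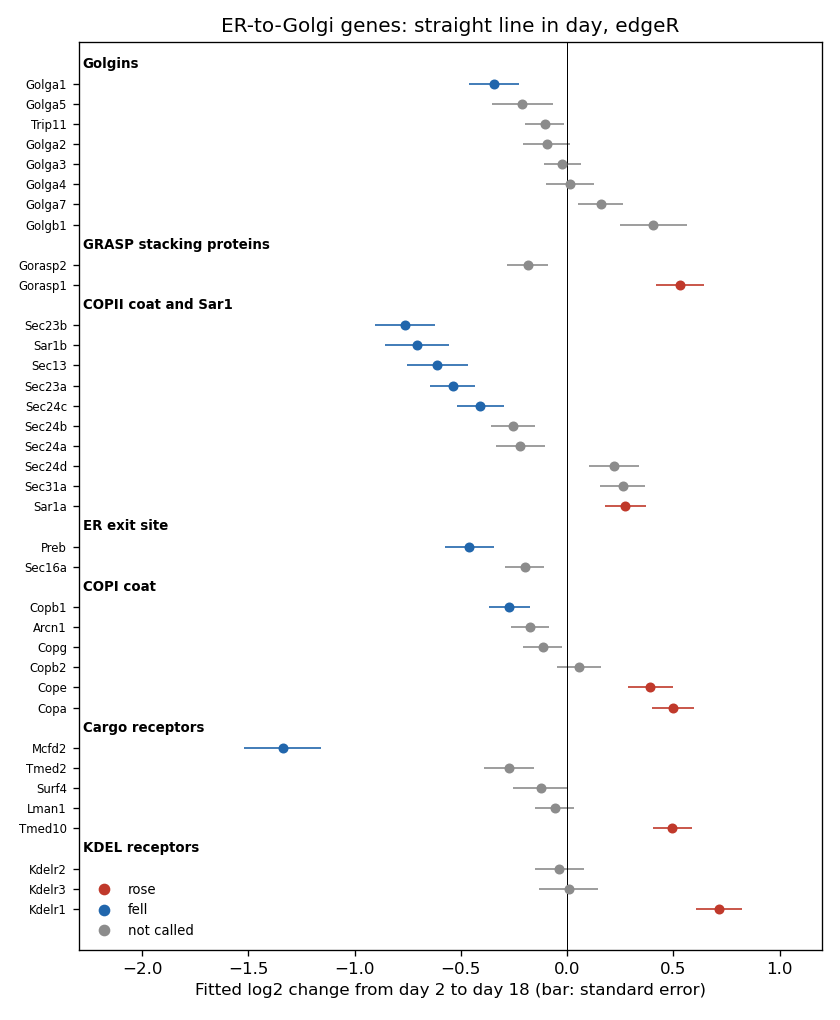
Fitted log2 change from day 2 to day 18 of the 36 transport genes, with each gene on the y axis grouped by role, the change on the x axis, its standard error as a bar and genes that rose in red, fell in blue and were not called in grey. Mcfd2, at -1.34, is the gene with a change larger than 1 in size, and the rises end at 0.72 for Kdelr1.

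The culture itself changed over the same days. Of 9 osteoblast markers 6 rose, and Bglap, which encodes osteocalcin, went from 1.24 TPM at day 2 to 208 TPM at day 18. Sp7 and Alpl also define osteoblasts. They were at 32.3 and 9.13 TPM on day 2, 3.50 and 0.467 TPM on day 6 and 10.6 and 17.6 TPM on day 18. Neither was called by the line, while both were called by the spline (edgeR adjusted p = 1.16e-05 and 0.00742). Spp1, also not called by the line, was called by the spline as well (edgeR adjusted p = 0.000421). All 4 proliferation markers fell, from a summed 249 to 296 TPM on days 2 to 6 to 63.0 to 80.9 TPM on days 14 to 18. Of 7 monocyte and macrophage markers 6 rose, from a summed 24.1 to 61.7 TPM to 522 to 2014 TPM, and all 5 adipocyte markers rose, from 3.21 to 7.44 TPM to 188 to 407 TPM. Cfd, an adipocyte gene, was at 0 on days 4 and 10, and no other listed marker was at 0 on any day. Of 4 endothelial markers 3 were tested, of which 2 rose and 1 fell. The 4 summed to 3.24 to 3.95 TPM on days 2 to 6 and to 8.84 to 11.96 TPM on days 14 to 18. The part of these cell types in the changes of the transport genes was not tested, and in bulk RNA fewer cells of a type and less RNA per cell cannot be told apart.

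Golga5, which encodes the golgin golgin-84 and occupies positions 103708120 to 103736112 of the plus strand of chromosome 12 (NCBIM37), was among the lowest of the transport genes at all times. It had 13.0 TPM (day 2), 16.2 (day 4), 16.1 (day 6), 15.6 (day 8), 12.25 (day 10), 16.1 (day 12), 13.3 (day 14), 14.1 (day 16) and 13.7 (day 18). Its highest and lowest days differed 1.32-fold, and the early and late days overlapped. With a mean of 14.5 ± 1.52 TPM (SD over 9 days) it ranked 35 of the 36 genes by level, above Gorasp1 at 6.85 TPM and below Golga1 at 15.9 TPM and Sec23b at 20.6 TPM. Golga5 was not called by the line, with a change of -0.21 (standard error 0.14, edgeR adjusted p = 0.236), or by the spline (edgeR adjusted p = 0.343). Counted from the lowest, its change ranked 13 and its coefficient of variation of 10.5% ranked 22 among the 36 genes.

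The golgins covered a range of levels, and of the 8 genes 0 rose and 1 fell in the line. The called share of 12.5% stood beside 54.3% over all genes tested and 61.7% of genes in the level range of the transport genes. The difference in these shares was not tested. Golga7, a small protein that assists a palmitoyl transferase and is no coiled-coil tether, was the highest of the golgins at 119 TPM on average. It was followed by Golgb1 (giantin) at 62.65 TPM, Golga3 at 43.2 TPM, Golga4 (golgin-245) at 39.0 TPM, Trip11 (GMAP-210) at 36.6 TPM, Golga2 (GM130) at 30.4 TPM and Golga1 (golgin-97) at 15.9 TPM. The daily values of Golga7 lay above those of every other golgin. Golgb1 overlapped with Golga3 on its lowest day, Golga3 with Golga4, Golga4 with Trip11 and Golga1 with Golga5, so these neighbours were not separated in every day's values. Golga2, with at most 34.3 TPM, stayed just under the lowest day of Trip11 at 34.5 TPM.

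Golgb1, the largest of the golgins and a tether of COPI vesicles, was the golgin with the highest coefficient of variation over the days, 15.0%. It stood at 41.6 TPM (day 2), 60.2 (day 4), 57.5 (day 6), 62.5 (day 8), 65.8 (day 10), 73.4 (day 12), 70.8 (day 14), 68.7 (day 16) and 63.4 (day 18). Day 2 was the lowest, and the values after day 12 came down without reaching it. The line missed the threshold at 0.41 (standard error 0.16, edgeR adjusted p = 0.0508), whereas the spline passed it (edgeR adjusted p = 0.00644), the single gene of the 36 for which this was so. The line called Golgb1 in 8 of 24 alternatives, among them leaving out day 10 or day 18.

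Golga1 was the golgin that fell in the line, by 0.34 on the log2 scale (standard error 0.12, edgeR adjusted p = 0.0299). In CPM, counts relative to the library total with no length correction, it went from 36.0 on day 2 to 28.9 on day 18, while in TPM, where the length is estimated from the isoforms, it was 14.6 on day 2 and 14.9 on day 18. On the TPM scale the call was lost, as it was without day 2, 4, 14 or 18. Golga2 also differed between the scales, with a change of -0.10 in counts and 0.32 on the log2(TPM + 1) scale, neither of them called. The steadiest gene of the 36 was Golga3, whose level stayed between 40.8 and 45.6 TPM with a coefficient of variation of 3.12%. Golga4 changed by 0.01 and Trip11, which binds curved membranes at the cis-Golgi, by -0.11 (edgeR adjusted p = 0.927 and 0.361). For Golga7 the change was 0.16 (edgeR adjusted p = 0.231).

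**Figure D2:**
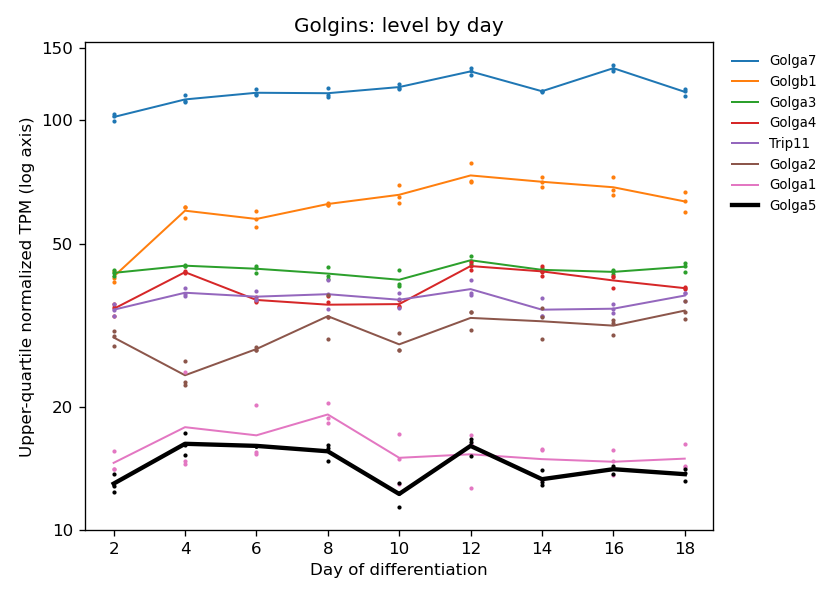
Upper-quartile normalized TPM of the 8 golgins (log axis) against day of differentiation, with points for the 3 lanes of a day and lines through their means, Golga5 in black. Golga5 and Golga1 run together at the bottom of the golgins, and Golgb1 has 41.6 TPM at day 2 and 73.4 TPM at day 12.

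Golga5 was also compared with each golgin by the ratio of their TPM within a day, which does not depend on how that day was scaled. Of 18 ratios of transport genes tested for a line in day, 9 were called. Each was put to an exact permutation test over the orders of the 9 days, two-sided and adjusted over the 18 ratios. Ratios of other gene pairs were not tested, so the share called among arbitrary pairs is not known. Against Golgb1 the ratio was 0.312 on day 2 and 0.216 on day 18, a log2 change of -0.62 (standard error 0.17, exact permutation p = 0.0117, adjusted p = 0.0234). This call was lost without day 2 and in a rank correlation with day. Against the other 6 golgins no change was called. The ratio to Golga7 came nearest, at -0.34 (exact permutation p = 0.0486, adjusted p = 0.0875), and that to Golga1 stayed at 0.08 (exact permutation p = 0.526, adjusted p = 0.591), with Golga5 the lower of these 2 genes on 8 of 9 days. The standard error for Golga1 was 0.12, so a modest difference in course was not detectable.

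The stacking proteins Gorasp1 (GRASP65) and Gorasp2 (GRASP55), which link Golgi cisternae, differed in level and in course. Gorasp1 was at 5.17 TPM (day 2), 5.83 (day 4), 6.31 (day 6), 6.52 (day 8), 6.61 (day 10), 7.52 (day 12), 7.53 (day 14), 8.06 (day 16) and 8.10 (day 18). Each day was higher than the one before. Gorasp1 rose by 0.53 (standard error 0.11, edgeR adjusted p = 0.00277), although its counts were never whole numbers, which means that RSEM divided reads between it and another gene in all 27 profiles, and the call was lost with FPKM as deposited.

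Gorasp2 had 95.8 TPM (day 2), 98.96 (day 4), 103 (day 6), 94.5 (day 8), 97.7 (day 10), 94.6 (day 12), 99.96 (day 14), 92.4 (day 16) and 100.2 (day 18). It was not called, at -0.19 (edgeR adjusted p = 0.129), and its counts were whole in 11 of 27 profiles. The ratio of Gorasp2 to Gorasp1 came down from 18.5 on day 2 to 12.4 on day 18, a log2 change of -0.63 (standard error 0.08, exact permutation p = 0.0002315, adjusted p = 0.00208).

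Among the 10 COPII genes, 5 fell, 1 rose and 4 were not called, and their median change was -0.33. The called share of 60% was near the 54.3% of all genes and the 61.7% of genes in the same level range, so the number called does not set these genes apart. By direction, 50% fell, beside 26.1% of all genes and 34.1% in the level range. Rises made up 10%, beside 28.3% and 27.6%. The difference in these shares was not tested. The 2 GTPases that start the coat moved apart. Sar1b, whose loss in humans stops the secretion of chylomicrons, had 96.1 TPM (day 2), 98.7 (day 4), 102 (day 6), 80.2 (day 8), 61.4 (day 10), 71.2 (day 12), 74.9 (day 14), 67.5 (day 16) and 69.5 (day 18). All days from 8 onwards lay below all earlier ones, and Sar1b fell by 0.71 (standard error 0.15, edgeR adjusted p = 0.00256).

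Sar1a, its paralog, had 159.8 TPM (day 2), 166 (day 4), 179.6 (day 6), 170.2 (day 8), 176 (day 10), 206 (day 12), 202 (day 14), 212 (day 16) and 193 (day 18). The last 4 days were the highest. Sar1a rose by 0.27 (standard error 0.10, edgeR adjusted p = 0.0322), but this call was lost in 12 of 24 alternatives, among them leaving out day 2, 4, 6, 8, 12, 14 or 16. The ratio of Sar1b to Sar1a was 0.602 on day 2 and 0.361 on day 18, a log2 change of -0.98 (standard error 0.18, exact permutation p = 0.00186, adjusted p = 0.00671).

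Sar1b lies head to head with Sec24a on chromosome 11. In NCBIM37 the annotated end of Sec24a on the minus strand, at 51577136, and the annotated start of Sar1b on the plus strand, at 51577189, leave 52 bases between them, shown here because the starts of both transcripts share this stretch (chr11:51577137-51577188, plus strand, 75% G and C, all in lower case since no part is marked).
Sec24a-Sar1b gap: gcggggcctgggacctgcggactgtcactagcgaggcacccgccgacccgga
Sar1b fell, whereas Sec24a, a cargo adaptor, was not called, at -0.22 (edgeR adjusted p = 0.127) and between 35.9 and 45.5 TPM. The difference between these 2 changes was not tested.

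The outer cage also divided. Sec13, a shared subunit of the COPII cage and the nuclear pore, had 69.8 TPM (day 2), 71.5 (day 4), 81.7 (day 6), 65.0 (day 8), 58.2 (day 10), 55.3 (day 12), 53.1 (day 14), 58.0 (day 16) and 55.5 (day 18). It fell by 0.61 (standard error 0.14, edgeR adjusted p = 0.0047), with all days from 10 onwards below the earlier ones.

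Sec31a, which forms the cage together with Sec13, was at 164 TPM (day 2), 184 (day 4), 199.8 (day 6), 204 (day 8), 195 (day 10), 216 (day 12), 222 (day 14), 204 (day 16) and 224 (day 18). It missed the threshold at 0.26 (standard error 0.11, edgeR adjusted p = 0.0619). The ratio of Sec31a to Sec13 went from 2.35 to 4.04, a log2 change of 0.84 (standard error 0.15, exact permutation p = 0.00157, adjusted p = 0.00671).

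Both Sec23 paralogs, the subunits that stimulate the GTPase activity of Sar1, fell. Sec23b had 25.0 TPM (day 2), 25.0 (day 4), 23.1 (day 6), 22.1 (day 8), 23.3 (day 10), 17.2 (day 12), 15.9 (day 14), 16.3 (day 16) and 17.5 (day 18). The last 4 days lay below the first 5. The change was -0.76 for Sec23b (standard error 0.14, edgeR adjusted p = 0.00116) and -0.54 for Sec23a (standard error 0.11, edgeR adjusted p = 0.00171), which went from 73.1 TPM at day 2 to 57.8 TPM at day 18. Their ratio was not called, at -0.26 (standard error 0.17, exact permutation p = 0.176, adjusted p = 0.244), so that a difference in course between them was not detectable over these 9 days.

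Of the 4 Sec24 paralogs, which choose the cargo, Sec24c was the one that fell. It had 44.0 TPM (day 2), 40.5 (day 4), 41.7 (day 6), 34.7 (day 8), 32.5 (day 10), 37.6 (day 12), 34.9 (day 14), 33.9 (day 16) and 36.0 (day 18), a change of -0.41 (standard error 0.11, edgeR adjusted p = 0.0104). The call was lost without day 2 and on the scale of upper-quartile normalized TPM but not of TPM as deposited, and reads of Sec24c were divided with another gene in every profile.

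Sec24d, the paralog linked to skeletal disease, stood at 46.9 TPM (day 2), 51.1 (day 4), 55.3 (day 6), 60.3 (day 8), 54.5 (day 10), 64.3 (day 12), 61.1 (day 14), 54.8 (day 16) and 62.8 (day 18). Alone it was not called, at 0.22 (edgeR adjusted p = 0.140), and its counts were whole in 1 of 27 profiles. Sec24d was about level with Sec24c on day 2, at a ratio of 1.06, and above it at 1.74 on day 18. This ratio changed by 0.62 (standard error 0.17, exact permutation p = 0.00538, adjusted p = 0.0138), a call that was lost without day 2 and in the rank correlation. Sec24b, at -0.25 (edgeR adjusted p = 0.0623), and Sec24a were not called, and the ratio of Sec24b to Sec24a changed by 0.03 (standard error 0.08, exact permutation p = 0.731, adjusted p = 0.731).

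**Figure D3:**
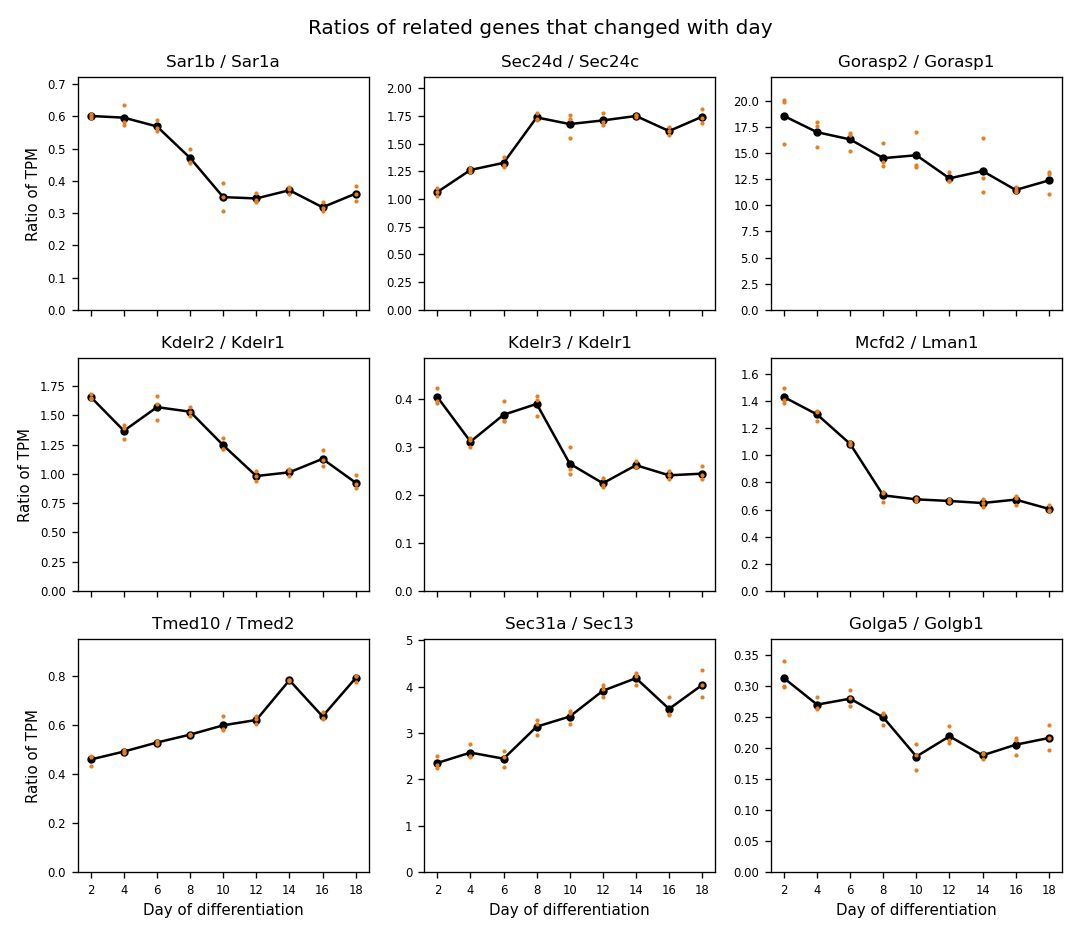
Ratio of the TPM of 2 transport genes (y axis, from 0) against day of differentiation, in 1 panel for each of the 9 pairs whose line in day was called, with black points for the day and orange points for its 3 lanes. Mcfd2 to Lman1 and Sar1b to Sar1a go down, and Sec31a to Sec13, Tmed10 to Tmed2 and Sec24d to Sec24c go up.

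Of the 2 analysed genes of the ER exit site, Preb (Sec12), the exchange factor that loads Sar1 with GTP, fell by 0.46 (standard error 0.11, edgeR adjusted p = 0.0062). Its level was 41.2 TPM on day 2, 28.6 TPM on day 14 and 38.7 TPM on day 18. All its counts included divided reads, and the call was lost on the TPM and FPKM scales. Sec16a, the scaffold of the exit site, remained between 32.1 and 37.4 TPM and was not called, at -0.20 (edgeR adjusted p = 0.0883).

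The 6 analysed subunits of the COPI coat ranged from 90.0 to 231.6 TPM on average, and 2 rose, 1 fell and 3 were not called, a called share of 50% beside 54.3% over all genes. Copa, the α subunit, was the highest of all 36 genes. It was at 184 TPM (day 2), 206.5 (day 4), 212 (day 6), 215 (day 8), 234.5 (day 10), 259.6 (day 12), 257.5 (day 14), 255 (day 16) and 259.8 (day 18). In TPM the values climbed until day 12 and then stayed level. In CPM there was no such levelling, with 538.5 on day 12 and 600.7 on day 18. The fitted change in counts was 0.50 (standard error 0.10, edgeR adjusted p = 0.00172).

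Cope, the ε subunit, rose by 0.39 (standard error 0.11, edgeR adjusted p = 0.00947), from 87.6 TPM at day 2 to 131 TPM at day 18, a call that was lost with FPKM as deposited. Copb1, the β subunit, fell by 0.27 (edgeR adjusted p = 0.0346), a call that was lost in 9 of 24 alternatives, among them leaving out day 2, 4, 8, 12, 14 or 16. Copb2 (β′) at 0.05, Copg (γ) at -0.12 and Arcn1 (δ) at -0.17 were not called (edgeR adjusted p = 0.68, 0.306 and 0.123). Arcn1 stayed between 117 and 128 TPM on all days.

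The cargo receptors held the fall with the greatest size. Mcfd2, a soluble calcium-binding partner of the lectin Lman1 (ERGIC-53) in the export of coagulation factors V and VIII, had 151 TPM (day 2), 155 (day 4), 128 (day 6), 84.8 (day 8), 74.9 (day 10), 79.9 (day 12), 73.5 (day 14), 75.3 (day 16) and 70.9 (day 18). The first 3 days were separated from all later ones. Mcfd2 fell by 1.34 (standard error 0.18, edgeR adjusted p = 0.000212), so that day 18 had 0.469 of the level on day 2, and its spline had the smallest adjusted p of the 36 genes (edgeR adjusted p = 6.57e-06).

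Lman1 was not called. It stood at 106 TPM (day 2), 119 (day 4), 119 (day 6), 120.5 (day 8), 111 (day 10), 120.5 (day 12), 113 (day 14), 112 (day 16) and 117 (day 18), with a change of -0.06 (standard error 0.09, edgeR adjusted p = 0.62). The ratio of Mcfd2 to Lman1 went from 1.43 on day 2 to 0.605 on day 18, and Mcfd2 was the higher of the pair on days 2, 4 and 6 and the lower on the other 6 days. The change of -1.25 (standard error 0.24, exact permutation p = 6.06e-05, adjusted p = 0.00109) was called under all 16 alternatives.

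The p24 proteins Tmed2 and Tmed10, which form mixed complexes in COPI and COPII vesicles, also changed against each other. Tmed10 had 83.3 TPM (day 2), 88.4 (day 4), 91.4 (day 6), 91.9 (day 8), 89.7 (day 10), 109 (day 12), 115.5 (day 14), 116 (day 16) and 125 (day 18). The last 4 days were all above the first 5, and Tmed10 rose by 0.49 (standard error 0.09, edgeR adjusted p = 0.00124).

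Tmed2 stood at 181 TPM (day 2), 179.6 (day 4), 173 (day 6), 164 (day 8), 149.7 (day 10), 175 (day 12), 147 (day 14), 182 (day 16) and 158 (day 18). Early and late days overlapped, and it was not called, at -0.27 (standard error 0.12, edgeR adjusted p = 0.0688). The ratio of Tmed10 to Tmed2 went from 0.460 to 0.792, a log2 change of 0.74 (standard error 0.11, exact permutation p = 0.000469, adjusted p = 0.00281). Surf4, a receptor for several soluble cargoes, had between 129.9 and 176 TPM and was not called, at -0.12 (edgeR adjusted p = 0.447).

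The KDEL receptors, which bind escaped ER residents in the Golgi and return them, differed in course. Kdelr1 had 119 TPM (day 2), 163 (day 4), 158 (day 6), 155 (day 8), 168 (day 10), 237 (day 12), 216 (day 14), 215 (day 16) and 232 (day 18). The last 4 days lay above the first 5 with no overlap. The rise of Kdelr1, 0.72 (standard error 0.11, edgeR adjusted p = 0.000359), was the greatest fitted rise among the 36 genes.

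Kdelr2 stood at 197 TPM (day 2), 223 (day 4), 249 (day 6), 237 (day 8), 209 (day 10), 232 (day 12), 219 (day 14), 243 (day 16) and 215 (day 18), and Kdelr3 at 48.1, 50.8, 58.2, 60.5, 44.5, 53.2, 56.6, 52.0 and 56.8 TPM on the same days. Neither was called, with changes of -0.04 and 0.01 (edgeR adjusted p = 0.809 and 0.967). The ratio of Kdelr2 to Kdelr1 was 1.66 on day 2 and 0.925 on day 18, a log2 change of -0.81 (standard error 0.16, exact permutation p = 0.0032, adjusted p = 0.00961). For Kdelr3 to Kdelr1 the change was -0.77 (standard error 0.21, exact permutation p = 0.0113, adjusted p = 0.0234), a call that was lost without day 2. Kdelr3 to Kdelr2 changed by 0.04 (standard error 0.13, exact permutation p = 0.731, adjusted p = 0.731).

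**Figure D4:**
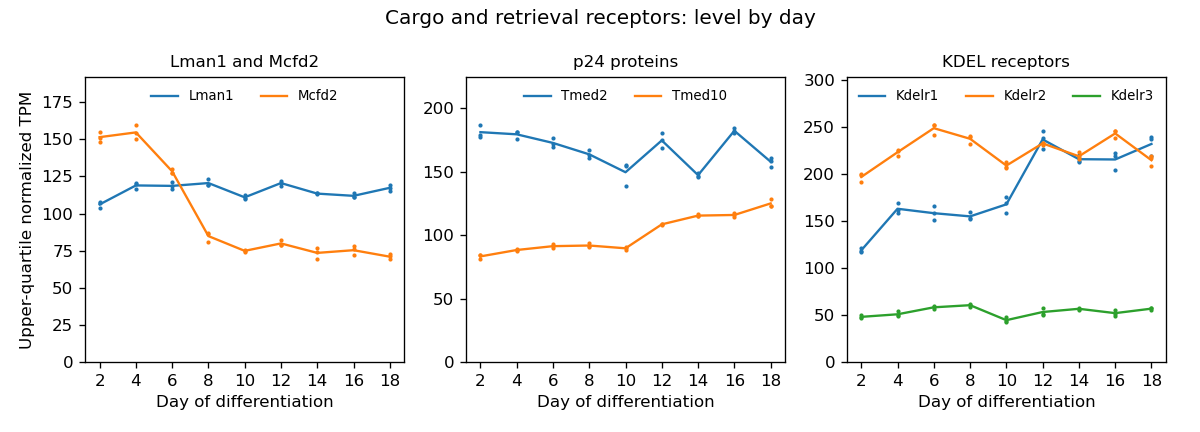
Upper-quartile normalized TPM of the cargo receptor pair Lman1 and Mcfd2, the p24 proteins Tmed2 and Tmed10 and the 3 KDEL receptors on each day, with points for the 3 lanes of a day and lines through their means. On this scale Mcfd2 crosses below Lman1 between days 6 and 8, and Kdelr1 steps up between days 10 and 12.

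In all, 8 of the 15 calls held under every setting tried. These were the falls of Sar1b, Sec13, Sec23a, Sec23b and Mcfd2 and the rises of Copa, Tmed10 and Kdelr1. The share of calls that held in this way was not worked out over all genes. In TPM, the lowest day was day 2 for 16 of the 36 genes and day 10, the library with the fewest counts, for 11. Of these 11, Golga5, Sar1b, Sec24a and Kdelr3 were lowest on day 10 in CPM as well, and the others on another day. The highest day in TPM was day 6 or day 12 for 8 genes each. Those highest on day 12 were Golga3, Golga4, Golgb1, Trip11, Sec24d, Copb2, Lman1 and Kdelr1. In CPM each of them was highest on another day. Of those highest on day 6, Sec13, Copg, Surf4 and Kdelr2 were so in CPM as well, and the others on another day. Such days were not tallied over all genes. Reads were divided between genes in at least 1 profile for 14 of the 36 genes, and the 22 others, Golga5 among them, had whole-number counts throughout.

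The promoters were searched for motifs of the ER stress response, because Sec23, Sec24 and COPI genes are known targets of its transcription factors. A RefSeq window of 300 bases in GRCm38.p6, from 250 before the transcript start to 50 after it, was given for 29 of the 36 genes. The element bound by XBP1, TGACGTGG, was found on either strand in 5 of the 29, or 17.2%, beside 0.714% of the 27025 genes with a window. The ER stress element, CCAAT and CCACG with 9 bases between them, was found in 0 of the 29 and in 0.137% of all genes, and the cyclic AMP response element TGACGTCA in 1, or 3.45%, and in 2.03% of all genes. The first and last of these motifs share their first 6 letters, and the CCACG that ends the ER stress element is part of the first motif on its other strand. The letters CCACG alone were in 79.3% of the 29 genes and 35.5% of all genes. For CCAAT alone the shares were 31% and 41.1%. The windows of all genes were not matched to those of the 29 in base composition, so the shares are not a like comparison. The stretches around the matches in 5 genes are printed 5′ to 3′ on the strand of the gene, with the matched letters in capitals, to show where the shared letters stand. Copb1, Copb2 and Kdelr3 have the element on the opposite strand, so that its reverse complement is in capitals.
Copb1: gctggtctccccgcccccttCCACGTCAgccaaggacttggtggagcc
Copb2: agagtcgcttcccggaagttCCACGTCA
Kdelr3: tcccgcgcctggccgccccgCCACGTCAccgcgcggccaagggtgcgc
Sec24d: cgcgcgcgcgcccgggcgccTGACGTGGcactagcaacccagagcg
Cope: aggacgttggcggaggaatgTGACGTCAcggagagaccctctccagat
These lie at chr7:114254681-114254728 on the minus strand for Copb1, chr9:98563704-98563731 on the plus strand for Copb2, chr15:79516358-79516405 on the plus strand for Kdelr3, chr3:123267450-123267495 on the plus strand for Sec24d and chr8:70302537-70302584 on the plus strand for Cope. The motif began 28 bases before the start in Copb1, 7 in Copb2, 30 in Kdelr3, 26 in Sec24d and 210 in Cope. A match describes the letters of the window and not a site in use. The windows of Golga5 held none of the 3 motifs.

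A list of 85 other genes of the pathway and of its regulators and cargo gave the setting for these changes. Of the 83 that passed the filter, 24 rose, 20 fell and 39 were not called, with a median change of 0.04. The called share of 53% was close to the 54.3% over all genes tested, as were its rises (28.9% beside 28.3%) and falls (24.1% beside 26.1%). The called genes included 3 rises and 8 falls among 21 tethers and other golgins, 3 rises and 1 fall among 12 COPI and Arf genes, and 4 rises and 7 falls among the 14 tested cargo receptors, or 52.4%, 33.3% and 78.6% called. Rises were led by Bglap at 11.27, Creb3l3 at 3.86, whose mean level was 0.521 TPM, and Col1a2 at 1.92, and falls by the p24 gene Tmed5 at -1.82, Fn1 at -1.73 and the dynein adaptor Bicd2 at -1.49. Tmed5 went from 67.1 TPM at day 2 to 23.8 TPM at day 18.

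The type I collagen genes on the cargo list rose by more than the 0.72 of Kdelr1, the greatest rise among the 36 transport genes. Col1a1 went from 1526 TPM at day 2 to 4263 TPM at day 18, a change of 1.23 (edgeR adjusted p = 0.00131), and Col1a2 from 983 to 4114 TPM (edgeR adjusted p = 0.000295). The regulator Creb3l1 (OASIS), which activates type I collagen in osteoblasts, rose by 1.21, from 65.5 to 141 TPM (edgeR adjusted p = 0.00019). Creb3l2, which activates Sec23a in chondrocytes, rose by 0.61 (edgeR adjusted p = 0.00349), over days on which Sec23a fell. Xbp1 rose by 0.60, from 107 to 173 TPM (edgeR adjusted p = 0.00133). Creb3, of the same family as Creb3l1, was the regulator on the list that fell, by 0.39, from 49.1 to 31.3 TPM (edgeR adjusted p = 0.0404), and was named after its values were seen. Atf6 was not called by the line, at -0.12 (edgeR adjusted p = 0.575), and was called by the spline (edgeR adjusted p = 0.00926), with its lowest level of 10.4 TPM on day 8.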

How the data were processed

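RNA sequencing profiles of 27 lanes, 3 for each of 9 days, were used. Per the labels, the authors used Bowtie 0.12.9 for alignment to the transcriptome of NCBIM37 and RSEM 1.2.8 for quantification, with a fragment length of 280 ± 50 bases. The deposited estimated counts are RSEM's expected counts per gene, in which reads matching several genes are divided. The deposited TPM are corrected for effective length and are not scaled further, and the FPKM deposited by the authors were used only in alternatives. Here TPM were divided by the 75th percentile of each profile (values above 0) and multiplied by its mean over profiles, after the upper-quartile step of the study. Profiles changed by a factor of 0.933 to 1.11.

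Estimated counts were summed over the 3 lanes of a day and rounded, giving 22470195 to 62009157 counts. The lanes differed by no more than sampling noise (chi-square per degree of freedom 0.999 to 1.02, genes with at least 30 whole-number counts). The sums were fitted by edgeR 4.0.16 in R 4.3.3 with a line or a natural spline (3 degrees of freedom) in day, upper-quartile factors, a minimum count of 10 in filterByExpr, the quasi-likelihood test and Benjamini-Hochberg adjustment over all genes. The common dispersion was 0.0581 around the line and 0.0196 around the spline. Ratios of 2 genes were fitted on log2(TPM + 0.1) and tested over all 362880 orders of the days in Python 3.11.15. Alternatives used limma 3.58.1 and DESeq2 1.42.0.

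Symbols were taken from the annotation of NCBIM37, and promoter windows from RefSeq (GRCm38.p6), 29 of 36 genes matched. The stretch around 1 motif match is not reported here. The members, ratios, motifs and gene lists were chosen with earlier results of these data known. By the rule for named genes, values on every day were given for Golga5, for genes of called ratios, for the 4 largest called rises and the 4 largest called falls, and for up to 3 genes called by the spline and not the line. At most 3 rises and 3 falls were named from the other pathway genes, besides fixed regulators and collagens.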

Additional observations from a re-analysis of the deposited data

How the results depend on the processing

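Same-numbered lanes did not deviate together across days (mean correlation 0.00568, beside -0.00284 for other numbers), and were not treated as pairs. With the 27 lanes entered as samples, which are not independent, the line called 28 of the 36 genes with the replicate block and 28 without it (10 rises and 18 falls in each, against 6 and 9), and the spline called 32 with the block and 33 without it, against 14. The share of rises among the calls was 40% in the counts, 61.5% with limma on log2(TPM + 0.1) or log2(TPM + 1), where 8 rose and 5 fell, 29.4% with TMM factors (5 and 12) and 20% with FPKM as deposited (3 and 12). These scalings moved the median change of all genes from 0.05 to between -0.04 (FPKM) and 0.15 (log2(TPM + 0.1)). The spline called 9 genes without day 2 and 9 to 16 over all single days and lanes left out. At an adjusted p under 0.01, 13 of the other pathway genes fell, against 20.

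Of 864 recomputed changes of single genes, 730 kept direction and side of the threshold and 40 changed sign, none of these in a gene called in the counts of the 9 days. Golga2 turned to 0.11 with FPKM, 0.33 with log2(TPM + 0.1), 0.32 with log2(TPM + 1) and 0.15 with TPM as deposited. With these normalized TPM scales in the same order, Golga3 turned to 0.0187 and 0.0184, Lman1 to 0.0255 and 0.0253 and Kdelr2 to 0.0631 and 0.0628. Copb2 turned to -0.0674 with FPKM and -0.0252 with TPM as deposited. Golga4 turned to -0.0179 with DESeq2, -0.0304 with TMM factors, -0.0265 with all genes of at least 1 count, -0.0004 for late against early days, -0.0522 with FPKM and -0.0114 with TPM as deposited. Kdelr3 turned to -0.0227 with DESeq2, -0.0355 with TMM factors, -0.0308 with all genes of at least 1 count, -0.0008 with a minimum count of 50, -0.11 with FPKM and -0.0697 with TPM as deposited. With 1 day or lane left out, Golga3 ranged from -0.0576 to 0.0114, Golga4 from -0.0473 to 0.13, Copb2 from -0.0258 to 0.10, Kdelr2 from -0.14 to 0.0204 and Kdelr3 from -0.0520 to 0.0561. Of 288 recomputed ratio changes, 275 kept direction and side. The ratio of Sec24b to Sec24a turned to -0.0390 with CPM and ranged from -0.0739 to 0.14 with 1 day or lane left out, Kdelr3 to Kdelr2 from -0.0732 to 0.13 and Golga5 to Golga1 from -0.0288 to 0.14. The causes were not tested. Since each day is 1 library, library differences that run with time and time itself cannot be told apart, and day 10, with the fewest counts, is the least precise.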

Other observations

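The 7 other p24 genes on the pathway list, named here after their values were seen, moved in both directions. They held 2 rises, 2 falls, 2 genes not called and 1 not tested. Over all genes tested, 28.3% rose and 26.1% fell, so calls in both directions do not set these genes apart. Tmed3 rose by 1.85 on the log2 scale, with 24.9 TPM at day 2, 104 TPM at day 16 and 89.6 TPM at day 18 (edgeR adjusted p = 0.00019), and Tmed4 by 0.38 (edgeR adjusted p = 0.00884). Tmed5 fell by 1.82 (edgeR adjusted p = 0.000114) and stood below 26 TPM on every day from day 10 onwards, and Tmed9 fell by 0.53 (edgeR adjusted p = 0.00518). Tmed1, at 0.24, and Tmed7, at -0.09, were not called (edgeR adjusted p = 0.266 and 0.465). Tmed6 did not pass the filter on low counts and stayed below 0.1 TPM on every day.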
